A study of Mus musculus with 4 samples.

Results

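The genes described here are Tnfrsf4, which encodes the receptor OX40, and 8 other costimulatory molecules of T cells: Tnfrsf9, Tnfrsf18, Tnfrsf1b, Cd27, Cd28, Icos, Cd40lg and Cd226. They were chosen by symbol, as 9 of the 27998 genes in the deposited tables. OX40 is the protein that one of the study's antibodies binds and activates. The question put to the data was therefore how much Tnfrsf4 and its relatives were expressed in CD8 T cells, CD4 T cells and Foxp3+ cells of the blood 11 days after that antibody was given.

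All mice were C57BL/6 and bore a subcutaneous MC-38 colon carcinoma, so no group was free of tumour. The untreated group received no antibody. The anti-OX40/CpG group received the agonistic OX40 antibody (clone OX86) next to the tumour with the adjuvant CpG on day 7. The anti-PD-L1 group received the blocking antibody on days 10, 13 and 17, and the PDOX group received both regimens. CD3+ T cells were enriched from blood on day 18 and profiled by droplet-based 3' single-cell RNA sequencing, in 1 library per group. The sample labelled OX40 was taken to be the anti-OX40/CpG group of the study's methods. GEO's design text speaks of 4 blood samples from 4 mice, so a difference between treatments had no replicate and carries no p-value.

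A T cell needs a signal from its antigen receptor and a second, costimulatory signal to divide and survive. CD28 and ICOS, relatives that bind ligands of the B7 family on antigen-presenting cells, signal through phosphoinositide 3-kinase, and CD28 is present on resting cells while ICOS is induced. OX40, 4-1BB (Tnfrsf9), GITR (Tnfrsf18), TNFR2 (Tnfrsf1b) and CD27 belong to the TNF receptor superfamily and signal through TRAF adaptors to NF-kappaB. CD27 is carried by naive T cells, OX40 and 4-1BB appear after activation, and mouse regulatory T cells, which are marked by the transcription factor Foxp3, carry OX40 and GITR. CD40 ligand (Cd40lg) is the TNF family member with which helper CD4 T cells activate B cells and dendritic cells, and CD226 (DNAM-1) is an immunoglobulin superfamily receptor that shares its ligands with the inhibitory receptor TIGIT.

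After cells with fewer than 200 genes were left out, 784 cells remained in the untreated library, 1446 in anti-PD-L1, 1559 in anti-OX40/CpG and 1510 in PDOX, with a median of 1434.5 to 1618 UMIs (unique molecular identifiers, which count captured mRNA molecules) per cell. Of the 4810 T cells, those with a UMI of Cd3d, Cd3e or Cd3g, 2085 were CD8 T cells, 835 were CD4 T cells and 70 were Foxp3+ cells. These classes were set by single UMIs, so 1571 T cells without a UMI of Cd4, Cd8a, Cd8b1 or Foxp3 could be placed in none of them. The label of Foxp3+ cells was set against 11 regulatory T cell genes other than Foxp3, which the gates did not use. They summed to 27.9 to 49.0 UMIs per 10000 in Foxp3+ cells. In CD4 T cells the sum was 5.22 to 9.63 and in CD8 T cells 3.78 to 5.81. Some of these genes, Nrp1 and Capg among them, were also higher in effector-type T cells, defined below. Of the Foxp3+ cells, 75.0% to 79.4% by library were of that type. This sum is no check on the CD4 T and CD8 T labels. Values by library are given below in the order untreated, then anti-PD-L1, then anti-OX40/CpG, then PDOX. The Foxp3+ cells numbered 8, 8, 20 and 34 in that order. Their share of T cells was 1.17% (exact binomial 95% interval 0.506 to 2.29), 0.610% (0.264 to 1.20), 1.35% (0.826 to 2.08) and 2.55% (1.77 to 3.55). Cells with both T cell and monocyte transcripts were unevenly spread over the libraries: 6 monocyte genes summed to 60.3 UMIs per 10000 in untreated CD4 T cells, where 3 of 99 cells held 10 or more such UMIs, and to 2.76 to 4.44 in the other libraries. In untreated Foxp3+ cells, 1 of the 8 cells held 33.7% of the class's UMIs and lifted the same sum to 260. A total of 14 cell barcodes occurred in more than 1 library and were kept.

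Levels below are summed UMIs of a gene per 10000 UMIs of the cells in that class and library, with exact Poisson 95% intervals. All intervals cover counting error only, not the variation between mice. Those of levels and ratios also treat each UMI as independent, although a cell could hold several UMIs of a gene. They leave out this variation between cells and may be too narrow. Where UMIs are summed over cells, fewer expressing cells and less RNA per cell cannot be told apart. The level of 1 gene is not compared with that of another, because 3' counts are not corrected for capture.

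Tnfrsf4 and Tnfrsf18 are neighbours on chromosome 4 (GRCm38.p6), at positions 156013595 to 156016613 and 156026322 to 156028894, with 9708 bases and 1 annotated gene, Gm25982, between them. Tnfrsf9 lies on the same chromosome at 150920155 to 150946104 and has a pair of RefSeq transcription starts. Their promoters are shown because these were the 3 genes of the set that were higher in Foxp3+ cells than in other CD4 T cells. Each is 300 bases of the plus strand around a start, read 5' to 3' from the RefSeq promoter table. Capitals mark matches, on either strand, to the core letters of AP-1 (TGANTCA), NF-kappaB (GGG, any 2 bases, then TTTCC) or NFAT (GGAAAA) sites, factors that act downstream of T cell activation.
Tnfrsf4, chr4:156013445-156013744: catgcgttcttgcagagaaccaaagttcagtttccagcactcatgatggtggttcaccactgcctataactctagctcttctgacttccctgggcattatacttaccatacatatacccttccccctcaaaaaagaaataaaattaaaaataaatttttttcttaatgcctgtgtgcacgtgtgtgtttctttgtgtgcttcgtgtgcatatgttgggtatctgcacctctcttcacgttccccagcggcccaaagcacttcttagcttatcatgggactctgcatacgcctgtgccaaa
Tnfrsf18, chr4:156026072-156026371: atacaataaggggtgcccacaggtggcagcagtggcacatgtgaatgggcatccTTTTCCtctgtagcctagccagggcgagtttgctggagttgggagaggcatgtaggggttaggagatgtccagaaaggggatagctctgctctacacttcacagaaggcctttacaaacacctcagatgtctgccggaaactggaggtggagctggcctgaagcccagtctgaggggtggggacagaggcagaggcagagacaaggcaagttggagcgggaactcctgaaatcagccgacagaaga
Tnfrsf9, chr4:150919905-150920204: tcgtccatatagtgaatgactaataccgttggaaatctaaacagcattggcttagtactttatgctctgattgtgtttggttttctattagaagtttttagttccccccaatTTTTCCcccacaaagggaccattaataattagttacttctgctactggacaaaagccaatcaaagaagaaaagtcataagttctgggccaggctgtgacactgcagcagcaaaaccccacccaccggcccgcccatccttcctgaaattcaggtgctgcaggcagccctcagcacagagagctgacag
Tnfrsf9, chr4:150927749-150928048: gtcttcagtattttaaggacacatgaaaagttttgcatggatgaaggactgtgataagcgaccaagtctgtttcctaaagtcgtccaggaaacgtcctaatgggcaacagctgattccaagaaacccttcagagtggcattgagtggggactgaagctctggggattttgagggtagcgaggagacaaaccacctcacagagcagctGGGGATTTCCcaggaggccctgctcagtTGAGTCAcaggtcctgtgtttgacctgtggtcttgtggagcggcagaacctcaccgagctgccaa
These letters occur in 7.81%, 1.63% and 23.4% of the 32851 mouse promoters of the same length in that table, and an NFAT match may lie inside an NF-kappaB match. The Tnfrsf4 window held none of them. The Tnfrsf18 window and the upstream Tnfrsf9 window each held 1 NFAT match, and the downstream Tnfrsf9 window held 1 NF-kappaB and 1 AP-1 match. A match is a description of the letters and not evidence of binding. The Tnfrsf1b window held no match and the Cd27 window held 1 NFAT match.

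The Tnfrsf4 level over all libraries was highest in Foxp3+ cells (4.71 UMIs per 10000), lower in CD4 T cells (0.460) and lowest of the 3 classes in CD8 T cells (0.104). Of its 300 UMIs in all cells, 70 (23.3%) came from the 70 Foxp3+ cells, 65 (21.7%) from CD4 T cells, 39 (13%) from CD8 T cells and 121 (40.3%) from T cells outside the 3 classes. Non-T cells gave the background: a UMI was seen in 0 of 127 B cells (exact 95% upper limit 2.86%), in 1 of 154 monocytes (0.649%) and in 1 of 66 NK cells (1.52%). Median depth was 1204 UMIs in B cells, 1524 in monocytes, 1667 in CD8 T cells, 1605 in CD4 T cells and 1886 in Foxp3+ cells. Over all libraries, a Tnfrsf4 UMI was seen in 48.6% of Foxp3+ cells, 6.35% of CD4 T cells and 1.68% of CD8 T cells. When each cell was thinned to 750 UMIs, these shares were 25.4%, 2.46% and 0.678%. The CD8 share lay near that of NK cells, which rests on 1 of 66 cells. The 35 CD8 T cells with a Tnfrsf4 UMI had UMIs of Il2ra in 14.3%, Ctla4 in 22.9% and Tnfrsf9 in 17.1% of cells, against 0.390%, 1.61% and 1.80% of the other CD8 T cells, at a median of 2141 against 1664 UMIs.

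In Foxp3+ cells the Tnfrsf4 level was 2.15 (0.586 to 5.50) untreated, 3.14 (1.02 to 7.32) after anti-PD-L1, 3.89 (2.38 to 6.01) after anti-OX40/CpG and 6.53 (4.68 to 8.85) after PDOX. These rest on 4, 5, 20 and 41 UMIs. The PDOX level was 3.04-fold the untreated one (exact 95% interval 1.10 to 11.7), and the anti-OX40/CpG level 1.81-fold (0.606 to 7.28). Thus only the PDOX interval lay above 1, and it no longer did so without the untreated cell that held monocyte UMIs: the ratios were then 2.01 (0.729 to 7.74) and 1.20 (0.402 to 4.83). The share of Foxp3+ cells with a Tnfrsf4 UMI was 37.5%, 37.5%, 50.0% and 52.9% in the same order, and 25%, 12.5%, 20% and 32.3% in thinned cells. UMIs per cell were few: 36 of the 70 cells had none, 17 had 1, 7 had 2, 4 had 3 and 6 had 4 or more, up to 5.

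In CD4 T cells without Foxp3 the Tnfrsf4 level was 0.124 (0.0151 to 0.449), 0.231 (0.0929 to 0.476), 0.538 (0.345 to 0.801) and 0.634 (0.434 to 0.895) from 2, 7, 24 and 32 UMIs. Both libraries that had received the OX40 agonist lay above the untreated level. The ratios were 4.33 (1.07 to 37.8) for anti-OX40/CpG and 5.10 (1.30 to 43.9) for PDOX, and without the T cells of 10 or more monocyte UMIs they were 3.87 (0.961 to 33.8) and 4.58 (1.17 to 39.5). The anti-PD-L1 ratio, 1.86, had an interval from 0.354 to 18.3. The share of CD4 T cells with a UMI ran 2.02%, 3.09%, 6.64% and 9.79%, and 0%, 1.66%, 2.13% and 4.10% when thinned. A sum over 11 regulatory T cell genes rose in the same library order in these cells, which by their gate had no Foxp3 UMI. It was 5.22, 6.17, 7.78 and 9.63 per 10000, with Ikzf2 alone at 0.186, 0.990, 1.03 and 1.35. Il2ra was at 0.0621, 0.0660, 0.0673 and 0.178. Other genes of the list did not follow that order. Izumo1r was at 1.80, 2.38, 1.86 and 1.59, and Capg at 2.36, 1.32, 2.40 and 3.07. Ctla4 was at 0, 0.231, 0.404 and 0.238. When CD4 T cells with a UMI of Il2ra or Ikzf2 were left out, Tnfrsf4 was still more than 1.5-fold above untreated after PDOX, while after anti-OX40/CpG it had fewer than 20 UMIs over the 2 libraries. In each of the 3 classes the interval of PDOX against anti-OX40/CpG held 1, at 1.18 (0.673 to 2.09) in CD4 T cells, 1.68 (0.960 to 3.02) in Foxp3+ cells and 0.691 (0.275 to 1.60) in CD8 T cells. Against anti-PD-L1, the anti-OX40/CpG ratio was 2.33 (0.974 to 6.40) in CD4 T cells and 1.24 (0.452 to 4.23) in Foxp3+ cells. The PDOX ratio to anti-PD-L1 was 2.74 (1.19 to 7.37) and 2.08 (0.822 to 6.74). Of these, only the PDOX interval in CD4 T cells lay above 1.

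In CD8 T cells 5, 6, 19 and 9 Tnfrsf4 UMIs were counted, at levels of 0.0995, 0.0466, 0.163 and 0.113. The anti-OX40/CpG ratio to untreated was 1.64 (0.592 to 5.61), an interval that held 1, and its ratio to anti-PD-L1 was 3.50 (1.34 to 10.7). The PDOX ratio to anti-PD-L1 was 2.42 (0.768 to 8.25). Among T cells outside the 3 classes the level ran 0.123, 0.207, 0.460 and 0.674, the same order as in CD4 T cells. Over all T cells the ratio was 2.76 (1.62 to 5.01) for anti-OX40/CpG and 4.28 (2.55 to 7.69) for PDOX. That sum takes in the Foxp3+ cells, whose share differed between the libraries as given above.

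**Figure D1:**
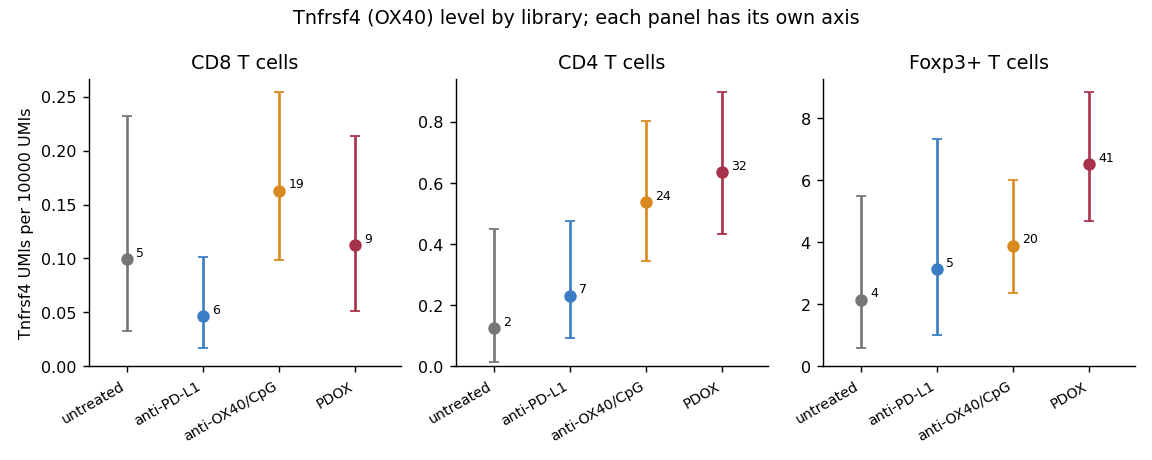
Tnfrsf4 level (UMIs per 10000 UMIs, y axis) by library (x axis) in CD8 T, CD4 T and Foxp3+ cells, each panel on its own axis. Points are the single library of each group with exact Poisson 95% intervals, and the numbers beside them are UMIs. In CD4 T cells both agonist-treated libraries (0.538 and 0.634) lie above untreated (0.124), and in Foxp3+ cells PDOX (6.53) is highest with wide intervals throughout.

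The remaining receptors were read in the same way, by counting genes with 20 or more UMIs over the 2 libraries whose level was more than 1.5-fold above untreated. Among CD4 T cells 5 of 7 such members passed after anti-OX40/CpG (Tnfrsf4, Tnfrsf18, Icos, Cd40lg and Cd226) against 18.4% of all genes, 4 of 7 after PDOX (the same without Cd40lg) against 20.4%, and 1 of 5 after anti-PD-L1 (Icos) against 14.6%. In CD8 T cells the counts were 2 of 8 (Tnfrsf4 and Tnfrsf9) against 9.85%, 1 of 6 (Icos) against 11.5% and 0 of 7 against 10.6%. In Foxp3+ cells they were 2 of 4 (Tnfrsf4 and Cd28) after anti-OX40/CpG against 27.0% and 3 of 5 (with Icos) after PDOX against 26.6%, while no member had 20 UMIs after anti-PD-L1, where 21.8% of all genes passed. No member was 1.5-fold lower in any of these comparisons, though Cd27 in CD4 T cells after PDOX was with gates on log1p above 1 and without the 5% of cells with most UMIs. Of all genes, the share 1.5-fold lower was 10.8% to 18.2% of all genes in CD8 T cells, 10.9% to 14.7% in CD4 T cells and 12.9% to 16.5% in Foxp3+ cells. The 3 ratios of a class share the untreated library, so they are not independent of each other. The filter also favours high ratios where untreated UMIs are few. In CD4 T cells Tnfrsf4 had 2 untreated UMIs against 24 after anti-OX40/CpG, Cd226 3 against 24 and Icos 4 against 63. After anti-PD-L1, Tnfrsf4 (1.86), Cd226 (2.12) and Tnfrsf1b (2.39) had CD4 T ratios above 1.5 but too few UMIs to be counted. The counts are therefore a description, and those of different libraries cannot be set against each other.

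Icos, which activated T cells induce, had the largest ratios in CD4 T cells. Its level was 0.249 (0.0677 to 0.636) untreated, 0.759 (0.481 to 1.14) after anti-PD-L1, 1.41 (1.09 to 1.81) after anti-OX40/CpG and 1.43 (1.12 to 1.80) after PDOX, from 4, 23, 63 and 72 UMIs. The ratios were 3.05 (1.04 to 12.1), 5.68 (2.11 to 21.5) and 5.74 (2.15 to 21.6), all with intervals above 1. Without the cells of 10 or more monocyte UMIs they were 2.73 (0.933 to 10.9), 5.08 (1.89 to 19.2) and 5.16 (1.93 to 19.4), so the anti-PD-L1 interval then held 1. In CD8 T cells Icos ran 0.498, 0.513, 0.583 and 0.788, and the PDOX ratio of 1.58 had an interval from 0.982 to 2.63. In Foxp3+ cells it ran 1.61, 2.51, 3.11 and 3.82 on 3 to 24 UMIs, with overlapping intervals.

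Cd28, the receptor that resting T cells already carry, had ratios to untreated above 1 in CD4 T cells and below 1 in CD8 T cells, by less than 1.5-fold and not all with intervals clear of 1. Its CD4 T level was 4.41, 5.88, 6.08 and 5.95, with ratios to untreated of 1.33 (1.01 to 1.78), 1.38 (1.06 to 1.81) and 1.35 (1.04 to 1.77). Without the cells of 10 or more monocyte UMIs these were 1.24 (0.935 to 1.67), 1.29 (0.982 to 1.70) and 1.26 (0.968 to 1.67), so the intervals then held 1. Its CD8 T level was 3.78, 2.79, 2.66 and 3.44, with ratios of 0.737 (0.617 to 0.884), 0.703 (0.585 to 0.847) and 0.910 (0.754 to 1.10).

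Tnfrsf18, the gene of GITR, was at 0.994, 1.49, 1.68 and 2.32 in CD4 T cells, and its PDOX ratio was 2.33 (1.38 to 4.21). In CD8 T cells it stayed between 0.995 and 1.21, and in Foxp3+ cells between 4.39 and 7.80 with overlapping intervals. Cd27 was slightly lower in CD8 T cells of every treated library, at 5.29 untreated against 4.02, 4.48 and 4.25. Those ratios were 0.760 (0.654 to 0.884), 0.846 (0.728 to 0.984) and 0.804 (0.682 to 0.947). CD4 T cells had Cd27 at 4.91, 4.52, 5.11 and 3.77, and the PDOX ratio of 0.767 had an interval from 0.587 to 1.01. Without the cells of 10 or more monocyte UMIs that ratio was 0.689 (0.527 to 0.907), below 1, and PDOX against anti-OX40/CpG was 0.737 (0.604 to 0.897) with all cells kept.

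Tnfrsf9, the gene of 4-1BB, was sparse in every class. In CD8 T cells its 5, 18, 30 and 10 UMIs came from 1, 13, 20 and 9 cells, and all untreated UMIs lay in 1 cell. The anti-OX40/CpG ratio of 2.59 had an interval from 0.993 to 8.54. That untreated cell held 10 or more monocyte UMIs. Without such cells the untreated library had 0 UMIs of Tnfrsf9, so no ratio could be formed. The exact intervals then began at 3.22 after anti-OX40/CpG, 1.74 after anti-PD-L1 and 1.36 after PDOX. For anti-PD-L1 and PDOX they rest on 18 and 10 UMIs, fewer than the 20 asked for in the counts above. With all cells kept, these 2 libraries had ratios of 1.40 (0.503 to 4.84) and 1.26 (0.392 to 4.69). CD4 T cells held 0, 1, 4 and 1 UMIs of it and Foxp3+ cells 0, 1, 5 and 5. Tnfrsf1b, the gene of TNFR2, was level across libraries in CD8 T cells, at 0.318 to 0.352. Its CD4 T level was 0.124, 0.297, 0.314 and 0.297 from 2 to 15 UMIs. Monocytes held 69 of all 373 Tnfrsf1b UMIs (18.5%), at 1.99 per 10000. Without the T cells of 10 or more monocyte UMIs, its CD8 T ratios to untreated were 1.06 (0.530 to 2.25), 1.44 (0.742 to 3.01) and 1.32 (0.641 to 2.86), beside 1.05, 1.10 and 1.02 with them.

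Cd226 in CD4 T cells was at 0.186, 0.396, 0.538 and 0.912, from 3, 12, 24 and 46 UMIs. Its ratio was 4.89 (1.57 to 24.6) after PDOX and 2.89 (0.876 to 15.0) after anti-OX40/CpG, and in CD8 T cells it ran 0.776, 0.917, 0.729 and 1.09. Cd40lg in CD4 T cells was at 0.621, 0.858, 0.964 and 0.832, and its anti-OX40/CpG ratio of 1.55 had an interval from 0.768 to 3.46. CD8 T cells held 2, 12, 7 and 6 UMIs of Cd40lg, and Foxp3+ cells 1, 1, 0 and 1.

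**Figure D2:**
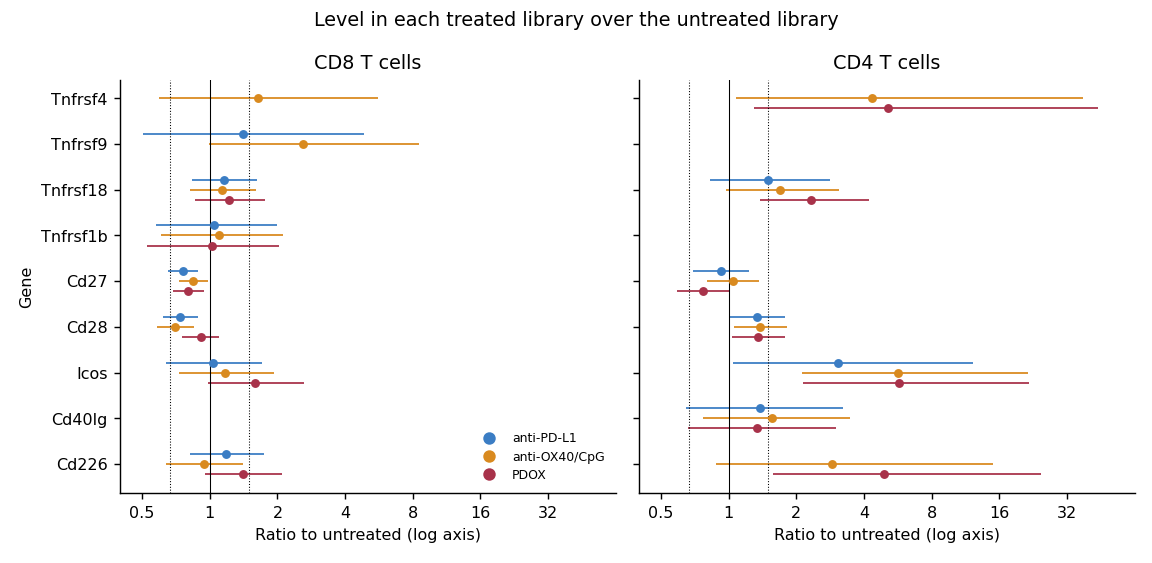
Ratio of each gene's level to the untreated library (x axis, log scale) in CD8 T and CD4 T cells for the 3 treated libraries, with exact 95% intervals. Only genes with 20 or more UMIs over the 2 libraries are drawn, and dotted lines mark 1.5-fold. In CD4 T cells Icos (5.68 and 5.74), Tnfrsf4 (4.33 and 5.10) and Cd226 (4.89 after PDOX) lie farthest to the right. Cd27 and Cd28 in CD8 T cells lie below 1.

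The cell classes themselves could be tested, since each library held all of them. For each comparison UMIs were summed per library and class, and edgeR's quasi-likelihood test was fitted over all genes with the library as a block. P-values were adjusted by Benjamini and Hochberg over every gene tested, and a gene was called at an adjusted p under 0.05.

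Foxp3+ cells were higher than other CD4 T cells in OX40, 4-1BB and GITR transcripts. The test used the anti-OX40/CpG and PDOX libraries, which had at least 10 cells of each class. Tnfrsf4 was 8.42-fold higher (log2 fold change 3.07, SE 0.30, edgeR adjusted p = 0.000865), Tnfrsf9 14.7-fold (3.88, SE 0.74, adjusted p = 0.0474) and Tnfrsf18 3.59-fold (SE 0.22, adjusted p = 0.00385). Each was higher in both libraries. Thus 3 of 9 members were called higher and none lower, against 0.572% and 0.31% of the 4198 genes tested. Tnfrsf9 rests on 10 UMIs in Foxp3+ cells and 5 in CD4 T cells of those libraries, and it was called in 3 of the 7 other settings in which it was tested, against 16 of 16 for Tnfrsf4 and 14 of 16 for Tnfrsf18. The Tnfrsf9 call was lost without the library block (0.0749), among other settings, and the Tnfrsf18 call in thinned cells (0.0857) and with no filter on low counts (0.143). Icos (log2 difference 1.22, adjusted p = 0.106, called in 4 of 16 other settings), Cd27 (0.79, 0.289) and Tnfrsf1b (0.92, 0.70) were not called. Cd40lg, the helper molecule, was lower by the estimate, with an SE of 0.94 and an adjusted p of 0.243, and Cd28 and Cd226 were close to equal (-0.15 and 0.01).

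The median log2 difference over the 9 members was 0.92, beside -0.04 over all genes. Regulatory T cell genes other than Foxp3 moved with them, 5 of 8 tested being higher, among them Ikzf2 (log2 3.55), Il2ra (3.26), Ctla4 (2.91) and Izumo1r (2.57). Ctla4, whose product competes with CD28 for its ligands, was the 1 called gene of 3 tested inhibitory receptors. None of 14 tested genes of TRAF and NF-kappaB signalling was called, nor any of 12 of CD28 and ICOS signalling or 9 other costimulatory receptors, and no ligand gene passed the filter on low counts.

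CD4 T and CD8 T cells differed in Cd40lg and Cd28. Cd40lg was higher in CD4 T cells in 4 of 4 libraries (log2 3.50, SE 0.26, edgeR adjusted p = 8.21e-06), as was Cd28 (0.81, SE 0.13, adjusted p = 0.00293). These were 2 of 7 members tested, against 1.48% of 5994 genes called higher and 2.32% called lower. Without the anti-OX40/CpG library Cd28 was no longer called (adjusted p = 0.0863). Tnfrsf18 (0.50, adjusted p = 0.0928), Icos (0.72, 0.0983) and Cd226 (-0.73, 0.0874) did not pass, and Cd27 was equal within its error (-0.02, 0.986). Tnfrsf4 and Tnfrsf9 had too few UMIs for the test. The Tnfrsf4 level was higher in CD4 T cells in 4 of 4 libraries, untreated on 2 UMIs in 99 CD4 T cells and 5 in 319 CD8 T cells. The Tnfrsf9 level was lower in 4 of 4, but its 5 untreated UMIs lay in the same CD8 T cell, which held 10 or more monocyte UMIs. Without such cells Tnfrsf9 had no untreated UMI in either class. The members' median was 0.50, beside 0.01 over all genes. Of 10 tested other costimulatory receptors 3 were higher in CD4 T cells, among them Tnfrsf25 (1.46) and Cd5 (1.11), and 2 were lower, Crtam (-2.28) and Cd7 (-1.37). None of 18 TRAF and NF-kappaB genes and none of 15 CD28 and ICOS signalling genes was called.

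To separate the receptors from the mix of cell states, cells were called effector-type when they had more UMIs over 8 effector genes, such as S100a4 and Lgals1, than over 8 naive genes, such as Ccr7 and Lef1, and naive-type when the reverse held. This divides a range and does not define a cell type: 434 CD8 T cells (20.8%) and 99 CD4 T cells (11.9%) lay within 2 UMIs of the cut. Effector-type cells made up 9.09%, 15.5%, 37.5% and 62.9% of CD4 T cells and 12.2%, 18.7%, 28.6% and 58.1% of CD8 T cells over the libraries. The libraries stood in the same order for this share as for Tnfrsf4 and Icos in CD4 T cells. However, PDOX against anti-OX40/CpG was 1.18 (0.673 to 2.09) for Tnfrsf4 and 1.01 (0.710 to 1.44) for Icos. With 1 library per group, the part of this share in those levels cannot be told apart from treatment and was not tested. For some members, levels or ratios within each state are given beside the tests.

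Effector-type CD4 T cells carried more Tnfrsf4, Tnfrsf18, Icos and Cd226 and less Cd27 than naive-type ones. Over the 3 treated libraries, the log2 difference was 1.78 for Tnfrsf4 (SE 0.45, edgeR adjusted p = 0.0029), 1.23 for Tnfrsf18 (SE 0.23, 4.53e-05), 1.47 for Icos (SE 0.28, 5.39e-05) and 1.45 for Cd226 (SE 0.38, 0.0042). All 4 were higher in 3 of 3 libraries. Cd27 was lower in 3 of 3 (edgeR adjusted p = 3.75e-06, SE 0.17), at levels of 1.97, 3.68 and 2.73 in effector-type cells against 5.17, 6.21 and 6.21 in naive-type ones. So 4 of 7 members tested were called higher and 1 lower, against 7.8% and 7.66% of 3653 genes, with a median of 1.23 beside 0.00. Cd28 (0.29, adjusted p = 0.2) and Cd40lg (0.44, 0.407) did not pass. Regulatory T cell genes moved with these receptors: 4 of 5 tested were higher in effector-type CD4 T cells (Ikzf2 4.26, Nrp1 3.80, Il2rb 2.99 and Capg 2.097), with a list median of 2.99. The same 4 genes were also called higher in effector-type CD8 T cells. When CD4 T cells with a UMI of Il2ra or Ikzf2 were left out, Tnfrsf4 had too few UMIs for the test, while Tnfrsf18 (1.13, edgeR adjusted p = 0.00305), Icos (1.39, 0.00238), Cd226 (1.60, 0.00654) and Cd27 (-1.17, 0.000124) were still called. With DESeq2 in place of edgeR, only the Cd27 call held of these 5: the adjusted p was 0.275 for Tnfrsf4, 0.0683 for Tnfrsf18, 0.064 for Icos and 0.436 for Cd226, and Cd226 was also lost without the PDOX library (0.172).

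Within naive-type CD4 T cells Tnfrsf4 was at 0.0801, 0.171, 0.210 and 0.289 from 1, 4, 5 and 4 UMIs, and within effector-type CD4 T cells at 0, 0.493, 0.945 and 0.780 from 0, 3, 19 and 28. The untreated effector-type value came from 9 cells, 3 of which held monocyte UMIs and 51.2% of that class's UMIs. The Tnfrsf4 intervals of the treated libraries overlapped in both states. Tnfrsf18 stayed at 1.01 to 1.24 in naive-type CD4 T cells of all libraries and was at 2.14, 2.54 and 2.81 in effector-type cells of the treated ones. Icos was at 0.320, 0.641, 0.839 and 0.433 in naive-type cells and at 1.31, 2.14 and 1.78 in treated effector-type cells. In naive-type CD4 T cells the Cd226 ratios to untreated were 1.60, 1.22 and 1.20, on 3 to 9 UMIs per library. Those of Cd28 were 1.13, 1.03 and 1.04, and the intervals of both genes held 1. In effector-type CD4 T cells the Cd28 ratios were 4.28, 4.75 and 4.07 over 5 untreated UMIs, with intervals above 1. Cd226 had no untreated UMI there.

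**Figure D3:**
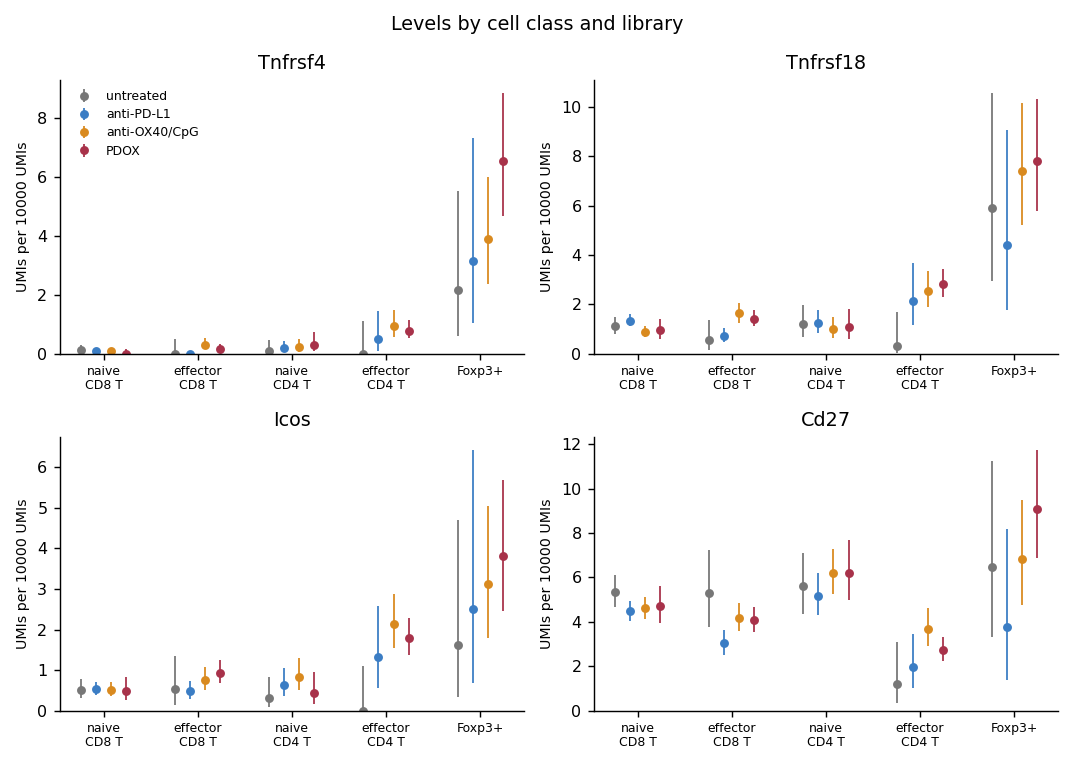
Levels of Tnfrsf4, Tnfrsf18, Icos and Cd27 (UMIs per 10000 UMIs, y axis) in naive-type and effector-type CD8 T and CD4 T cells and in Foxp3+ cells, by library, with exact Poisson 95% intervals. In the treated libraries Tnfrsf4, Tnfrsf18 and Icos step up from naive-type to effector-type CD4 T cells and again to Foxp3+ cells, while Cd27 falls from naive-type to effector-type CD4 T cells.

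Between the CD8 T states the members called were Tnfrsf1b and Cd28. Tnfrsf1b had too few UMIs for the test in CD4 T cells, and no member's state difference was called as different between the lineages, as given below. Tnfrsf1b was higher in effector-type cells in 4 of 4 libraries (edgeR adjusted p = 0.000125, SE 0.29), at 0.795, 0.526, 0.738 and 0.389 against 0.222, 0.242, 0.151 and 0.225. Cells of 10 or more monocyte UMIs held 23.6% of the untreated and 15.9% of the anti-PD-L1 UMIs of effector-type CD8 T cells. Without them Tnfrsf1b had 2 and 10 UMIs in these cells, beside 6 and 21 with them. Its log2 difference was then 1.31 (edgeR adjusted p = 0.000867). Cd28 was higher in 4 of 4 (0.44, SE 0.12, edgeR adjusted p = 0.00943), a call that was lost with DESeq2 (0.146), without the library block (0.0795) and without the anti-OX40/CpG library (0.164). These were 2 of 6 members tested, against 12.3% of 5387 genes called higher and 9.86% lower, with a median of 0.35 beside -0.01. Icos (0.49, adjusted p = 0.135), Tnfrsf18 (0.20, 0.57), Cd226 (0.27, 0.406) and Cd27 (-0.16, 0.352) did not pass.

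Tnfrsf4 was too sparse in CD8 T cells for the test. It was counted 5, 6, 7 and 0 times in naive-type and 0, 0, 12 and 8 times in effector-type CD8 T cells, so every effector-type UMI came from a library that had received the agonist. The untreated 0 rests on 39 cells and allows up to 0.489 per 10000, above both agonist levels. Those levels were 0.295 (0.153 to 0.516) after anti-OX40/CpG and 0.156 (0.0672 to 0.307) after PDOX, while 0 UMIs in anti-PD-L1 effector-type cells allowed up to 0.0923. The share of effector-type CD8 T cells with a UMI was 4.71% and 3.09% in these libraries, beside 1.52% of NK cells (exact 95% interval 0.0384 to 8.16). Tnfrsf9 UMIs also lay more often in effector-type cells, 48 of them in 611 cells against 14 in 1405 naive-type cells.

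Whether the effector-type difference itself differed between CD4 T and CD8 T cells was tested as an interaction in 3 libraries. No member of 8 tested was called, beside 0.11% of 5472 genes called higher and 0.0% lower by edgeR. At an unadjusted p under 0.05 there were 4 members: Cd27 (-0.83, adjusted p = 0.0904), Cd226 (1.20, 0.438), Tnfrsf18 (0.91, 0.475) and Icos (0.82, 0.595). Cd27 was called when the anti-PD-L1 library was left out (adjusted p = 0.0324) and when T cells of 10 or more monocyte UMIs were (0.0255), and DESeq2 called no member.

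The called genes of TRAF and NF-kappaB signalling were all lower in effector-type cells. Of 17 tested TRAF and NF-kappaB genes 5 were lower in effector-type CD8 T cells and none higher, among them Nfkbia (-0.93), the inhibitor that NF-kappaB induces, Relb (-0.85), Birc2 (-0.80) and Ikbkb (-0.65). Among CD4 T cells 2 of 14 were lower, Birc2 (-1.05) and Nfkbia (-0.82). Of the CD28 and ICOS signalling genes, Pdk1 (-1.65 and -2.51) was lower in effector-type CD8 T and CD4 T cells. In all, 2 of 15 were higher and 3 lower in CD8 T cells, and 0 of 11 higher and 3 lower in CD4 T cells. Of all genes tested, 12.3% were called higher and 9.86% lower between the CD8 states, and 7.8% and 7.66% between the CD4 states. Of the other costimulatory receptors tested, 3 of 9 were higher in effector-type CD8 T cells, Cd48 (1.91), Slamf1 (1.67) and Cd7 (1.20), with Cd84 lower (-0.45), and 3 of 8 were higher in CD4 T cells, Cd48 (1.55), Cd7 (1.52) and Slamf6 (0.90). Pdcd1, the gene of PD-1, was higher in effector-type CD4 T cells (4.22, edgeR adjusted p = 9.52e-06).

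**Figure D4:**
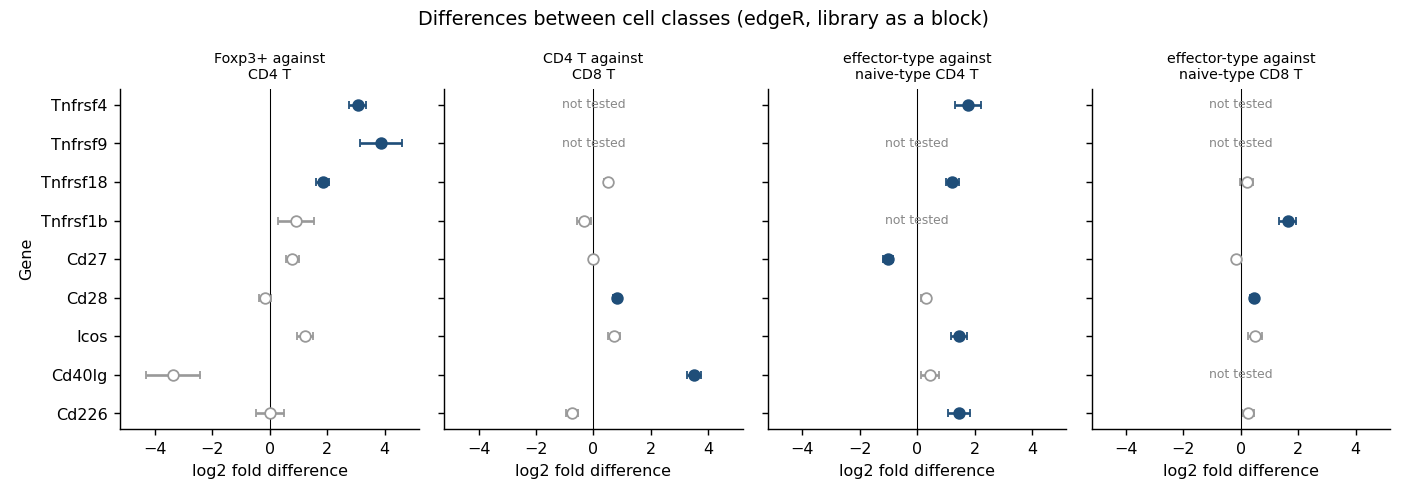
Log2 fold change of each gene with its SE (x axis) in 4 comparisons of cell classes. Filled points have an edgeR adjusted p under 0.05, open points do not, and genes removed by the filter on low counts are marked as not tested. Tnfrsf4, Tnfrsf9 and Tnfrsf18 are filled in Foxp3+ against CD4 T cells, Cd40lg and Cd28 in CD4 T against CD8 T cells, Tnfrsf1b and Cd28 in CD8 T states, and 5 genes in CD4 T states.

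CD4 T cells with and without a Tnfrsf4 UMI were compared in the anti-OX40/CpG and PDOX libraries to see which other receptors lay in the same cells. Icos was higher in Tnfrsf4+ cells (log2 1.44, SE 0.35, edgeR adjusted p = 0.0137), 1 of 6 members tested, against 0.41% of 4148 genes called higher and 0.265% lower. The call held in 6 of 12 other settings and was lost with DESeq2 (adjusted p = 1), without the library block (0.861), in thinned cells (0.613) and when CD4 T cells with a UMI of Il2ra or Ikzf2 were left out (log2 0.91, 0.919). Tnfrsf18 (0.46, adjusted p = 0.856), Cd28 (0.22, 0.988), Cd27 (-0.25, 0.991), Cd40lg (0.40, 0.999) and Cd226 (0.17, 0.999) did not pass. Ikzf2, a gene of regulatory T cells, was also higher (1.72, edgeR adjusted p = 0.00263), in cells that by their gate had no Foxp3 UMI. By cells in all 4 libraries, 18 of 53 Tnfrsf4+ CD4 T cells (34.0%) had an Icos UMI against 13.9% of 782 others, and 27 (50.9%) had a Tnfrsf18 UMI against 21.6%. Tnfrsf4+ cells were also deeper, with a median of 1941 against 1589.5 UMIs. Of them, 17 came from anti-OX40/CpG and 28 from PDOX, the libraries where Icos and Tnfrsf18 were also highest in CD4 T cells. The parts of depth and of library in these pooled shares were not tested. Within Foxp3+ cells edgeR and DESeq2 each called 0 of 553 genes between Tnfrsf4+ and Tnfrsf4- cells, and edgeR gave 28 at an unadjusted p under 0.05.

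The genes whose level most resembled that of Tnfrsf4 over 20 profiles (naive-type and effector-type CD8 T and CD4 T cells and Foxp3+ cells in 4 libraries) were Tnfrsf18 (Pearson r = 0.955), Ctla4 (0.923), Samhd1 (0.871), Itgb7 (0.870) and Icos (0.866), among 6079 genes with 100 or more UMIs. These profiles share libraries and differ in depth, and the values describe likeness only.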

How the data were processed

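The authors enriched CD3+ T cells from blood, made Chromium 3' libraries and deposited raw UMI counts per gene and cell. The submitters' processing notes name Seurat 2 and the build mm10, the study's methods list Cell Ranger, and its settings are not given in the sources used here. From these counts 13 mitochondrial, 103 ribosomal and 10 hemoglobin genes were removed, as in the study's methods, and then cells with fewer than 200 genes (78, 5, 24 and 28 cells). T cells had at least 1 UMI of Cd3d, Cd3e or Cd3g and no more than 1 UMI over 4 B cell genes. CD8 T, CD4 T and Foxp3+ cells were gated on UMIs of Cd8a or Cd8b1, Cd4 and Foxp3, with no Cd8 UMI in the last 2 and none of Foxp3 or of the other lineage in the first 2. No doublet caller was run. Tests between classes used edgeR 4.0.16 in R 4.3.3 (TMM, filterByExpr, quasi-likelihood) on UMIs summed per library and class, with 10 or more cells in each and the library as a block, since the classes of a library come from the same blood. The genes that define a class were left out of its test. DESeq2 1.42.0 was an alternative. All 9 members, up to 4 called genes of largest change from each list and the 5 genes most like Tnfrsf4 are named, except for an item that is not reported here. The members, lists and tests were chosen with earlier results of these data known. The test was tested on simulated data: with counts drawn for Foxp3+ against CD4 T cells, 60% of genes set to a log2 change of 2 and 0% of those set to 1 were recovered.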

Additional observations from a re-analysis of the deposited data

Results flagged for a closer look

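The effector-type against naive-type difference was larger in CD4 T than in CD8 T cells for 2 regulatory T cell genes, by an interaction term fitted over 3 libraries. Ikzf2 differed by 2.94 on the log2 scale (SE 0.57, edgeR adjusted p = 0.0319), and the call held in 10 of 15 alternatives. Il2rb, a chain of the interleukin receptor that effector and regulatory T cells share, differed by 2.07 (SE 0.42, edgeR adjusted p = 0.0484), and the call held in 8 of 15.

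The Cd28 ratio to untreated lay above 1 in CD4 T cells and below 1 in CD8 T cells in each of the 3 treated libraries. Its ratio to untreated in CD4 T cells was 1.33 after anti-PD-L1, 1.38 after anti-OX40/CpG and 1.35 after PDOX, and in CD8 T cells 0.737, 0.703 and 0.910. The last of these had an interval from 0.754 to 1.10, and without cells of 10 or more monocyte UMIs all 3 CD4 T intervals held 1. The difference between lineages was not tested, since there is 1 library per treatment, and all of these ratios share the untreated library.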

How the results depend on the processing

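Treatment differences rest on 1 library each, and few Foxp3+ cells and UMIs also limit them. Of 1306 values for named genes under other settings, 1182 kept their direction and side of the threshold, 94 lost a call, 19 gained one and 11 changed sign. Of 84 Tnfrsf4 levels, 76 moved by less than their counting interval and 8 by more. A minimum of 5 cells and leaving out T cells of 10 or more monocyte UMIs were chosen after seeing the data. The cause of the changes below was not tested.

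Foxp3+ against CD4 T cells gave 37 called genes, 13 with DESeq2, 5 with no filter, 64 with a minimum of 5 cells (21 to 57 leaving out libraries, 21 without anti-OX40/CpG), 16 with all genes kept, 6 in thinned cells and 22 without monocyte-UMI cells. CD4 T against CD8 T cells gave 228, 150 with DESeq2, 446 with no filter, 352 with all genes kept, 456 without the 5% of cells with most UMIs, 344 with gates on log1p above 1 and 68 to 205 leaving out a library (68 without anti-OX40/CpG). The CD8 states gave 1194, 470 with DESeq2, 389 thinned, 716 without the deepest 5% and 788 to 1376 leaving out a library (788 without anti-PD-L1). The CD4 states gave 565, 154 with DESeq2, 233 thinned, 299 with a minimum of 5 cells and 201 to 610 leaving out a library (201 without anti-OX40/CpG). The interaction gave 6, 3 with DESeq2, 32 with no filter, 1 with a minimum of 5 cells, 14 without cells over 2900 genes, 33 without the deepest 5%, 27 with log1p gates, 2 with a split at 2 times the UMIs, 19 without monocyte-UMI cells and 3 to 29 leaving out a library (29 without anti-PD-L1, 3 without anti-OX40/CpG). Tnfrsf4+ against Tnfrsf4- CD4 T cells gave 28, 0 with DESeq2, 13 with a minimum of 5 cells, 6 thinned, 5 without the deepest 5% and 0 when cells with Il2ra or Ikzf2 were also left out. Tnfrsf4+ against Tnfrsf4- Foxp3+ cells gave 0, 2 with no filter and 5 with all genes kept.

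Without the library as a replicate block, the calls were 7 for Foxp3+ against CD4 T cells, 79 for CD4 T against CD8 T cells, 0 for the interaction and 0 for Tnfrsf4+ CD4 T cells.

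Members above 1.5-fold in CD8 T cells were 1 for anti-PD-L1 with log1p gates, 0 thinned and 1 without the deepest 5% for anti-OX40/CpG, and for PDOX 2 with all genes kept, 2 with log1p gates, 0 thinned and 0 without the deepest 5%. In CD4 T cells they were 2 thinned and 2 without the deepest 5% for anti-OX40/CpG, and 2 thinned for PDOX, where 1 member, Cd27, was 1.5-fold lower with log1p gates and without the deepest 5%. In Foxp3+ cells they were 0 thinned, 1 without the deepest 5% and 1 without monocyte-UMI cells for anti-OX40/CpG, and 0 and 1 for PDOX thinned and without the deepest 5%. The Foxp3+ share at 2 or more Foxp3 UMIs was 0.292%, 0.153%, 0.405% and 0.676%, and in thinned cells 0.766% for anti-OX40/CpG and 1.03% for PDOX.

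Signs changed only in values that were not called. Cd226 in Foxp3+ against CD4 T cells was -0.15 with no filter and -0.13 with a minimum of 5 cells without untreated. Cd27 in CD4 T against CD8 T cells ran from -0.067 to 0.063 leaving out a library (above 0 without PDOX) and was 0.029 without the deepest 5%. In CD8 states Tnfrsf18 ran from -0.19 (without anti-OX40/CpG) to 0.63 and Cd226 from -0.043 (without PDOX) to 0.395. The Tnfrsf4 interaction was -0.13 with the split at 2 times. In Tnfrsf4+ CD4 T cells Tnfrsf18 was -0.085 and Cd27 0.094 thinned, and Cd226 was -0.10 without the deepest 5% and -0.49 without cells of Il2ra or Ikzf2.

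Not run for want of 10 cells per class were the fits leaving out a library for Foxp3+ against CD4 T cells and for Tnfrsf4+ cells, Tnfrsf4+ Foxp3+ cells without cells over 2900 genes or without the deepest 5%, and effector-type against naive-type Foxp3+ cells, of which no library had more than 5 naive-type cells.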

Other observations

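Of the regulatory T cell genes tested between the CD8 T states, 4 of 6 were higher in effector-type cells and 1 was lower. The 4 were Ikzf2, Nrp1, Capg and Il2rb, which were also called higher in effector-type CD4 T cells. Il2rb was higher by 1.21 (log2, edgeR adjusted p = 3.25e-06) in CD8 T and 2.99 (6.69e-10) in CD4 T cells, and Ikzf2 by 1.115 and 4.26. Nrp1 was higher in effector-type cells by 3.37 (log2, edgeR adjusted p = 1.01e-07) in CD8 T and 3.80 (2.55e-11) in CD4 T cells, and Capg by 2.87 (3.13e-12) and 2.097 (4e-11). Itgae, the integrin chain of tissue-resident T cells, was lower in effector-type CD8 T cells (-1.15, edgeR adjusted p = 0.00215) and lower in CD4 T than in CD8 T cells (-3.08, 0.000656).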
